A study of Caenorhabditis elegans with 12 samples.

Results

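The comparison described here is the anti-FLAG immunoprecipitate (IP) of tagged SART-3 against the input RNA of the same lysates, the negative control of an RNA co-immunoprecipitation and sequencing (RIP-seq) experiment in *Caenorhabditis elegans*. It covers 6 of the 12 libraries of the series, 3 SART-3 IP and 3 SART-3 input, and every gene with at least 10 counts in at least 3 of these 6 libraries, which left 11865 of 20182 genes. The SART-3 worms carried the single-copy transgene xeSi55, in which the dpy-30 promoter drives sart-3 fused to a tag of GFP, his and FLAG and followed by the xrn-2 3′UTR, together with him-5(e1490), a mutation that raises the share of males. The labels place the tag after sart-3, whereas the text of the study writes it in front. The LIN41 worms used for comparison carried lin-41(n2914), a transgene xeSi197 with tagged lin-41 under its own promoter and 3′UTR, and the same him-5(e1490). Both strains were grown at 25 °C for about 30 h to a semi-synchronous mixture of the L3 and L4 larval stages, so every library came from whole worms and not from isolated cells. Each strain has 1 transgene insertion and no untagged strain was analysed here.

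RIP-seq asks which RNAs come down with a protein more than their level in the lysate predicts, and a control bait shows which RNAs come down without the protein of interest. SART-3 is a nuclear protein of pre-mRNA splicing. Its human counterpart SART3 binds the U6 small nuclear RNA and helps to pair it with the U4 RNA when spliceosomes are recycled. The libraries were made from polyadenylated RNA, so they report mRNAs, and the small nuclear RNAs themselves were not analysed here. Of the genes tested, 11541 are protein coding in the WBcel235 annotation, 121 are pseudogenes and 199 have no entry there.

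The SART-3 IP libraries held 412440, 612445 and 456053 counts, and the SART-3 input libraries held 1274703, 1354051 and 1401265. All 3 inputs were sequenced in flow cell lane 3 and all 3 IPs in lane 4, so library type and lane cannot be told apart. A count of 3 in a gene corresponded to between 5.19 and 8.68 CPM (counts relative to the TMM-scaled library total, the usual CPM scale) in an IP library and to between 1.93 and 2.23 CPM in an input library. The IP and the input of 1 replicate number came from 1 lysate, and the replicate number was a term of the test. The authors collapsed reads with the same 5′ end into 1 read, which sets an upper limit on the counts of a short and abundant mRNA. The highest value in these libraries was 0.929 counts per bp of coding length, and 407 of the tested genes exceeded 0.5 counts per bp. A gene with the same number of counts in both libraries of a replicate, deep or shallow, has a normalized log2 ratio of 1.96, 1.38 and 1.97 in replicates 1, 2 and 3 (mean 1.77). Ratios near 1.77 therefore stand for equal counts, and their values are given below together with the counts per bp. When each count was corrected for this limit from the counts per bp, 2149 genes were higher and 1670 lower in the comparison described next, where the deposited counts gave 2278 and 1818, and the median log2 ratio of ribosomal protein genes was 1.59, with 77 of 77 higher. Counts that are equal in both libraries stay equal under this correction.

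Of the 11865 genes, 2278 (19.2%) were higher in the SART-3 IP than in the SART-3 input and 1818 (15.3%) were lower, at an adjusted p under 0.05 (edgeR quasi-likelihood test with the replicate as a block, Benjamini-Hochberg over all tested genes, two-sided). The 2278 higher genes had a median log2 ratio of 0.77, and 2214 of them had the same sign in 3 of 3 replicates. The 1818 lower genes had a median of −0.90, and 1784 of them had the same sign in 3 of 3 replicates. A log2 ratio over 1 in size was reached by 721 of the higher and 752 of the lower genes, and a ratio over 2 in size by 25 of the higher and 90 of the lower genes. The higher genes were short, with a median coding length of 666 bp, and the lower genes were long, with a median of 1974 bp, against 1161 bp over all tested genes. Among the 7214 genes with at most 0.1 counts per bp in each of the 6 libraries, 340 (4.71%) were higher and 1539 (21.3%) were lower. The split depended on the scaling. Higher genes were 55.6% of all calls with TMM factors over all tested genes, 24.1% with total counts only and 81.2% with TMM factors taken from the 7214 sparse genes, and the median log2 ratio of all tested genes was −0.03, −0.33 and 0.24 under these scalings. Without replicate 3 there were 1391 higher and 917 lower genes, and without replicate 1 there were 1703 higher and 1031 lower genes. No gene called in one direction was called in the other under any alternative.

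The deposited counts were lower in the IP than in the input for most of the called genes, and the inputs were deeper. Of the 2278 higher genes, 2060 had a summed IP count below 0.8 times the summed input count, 195 lay between 0.8 and 1.25 times, and 23 lay above 1.25 times. Only 17 of the 11865 genes had more counts in the IP than in the paired input in 3 of 3 replicates. This criterion needs no scaling factor. It was chosen after the values were seen, so the 17 genes are described without a further test.

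**Figure D1:**
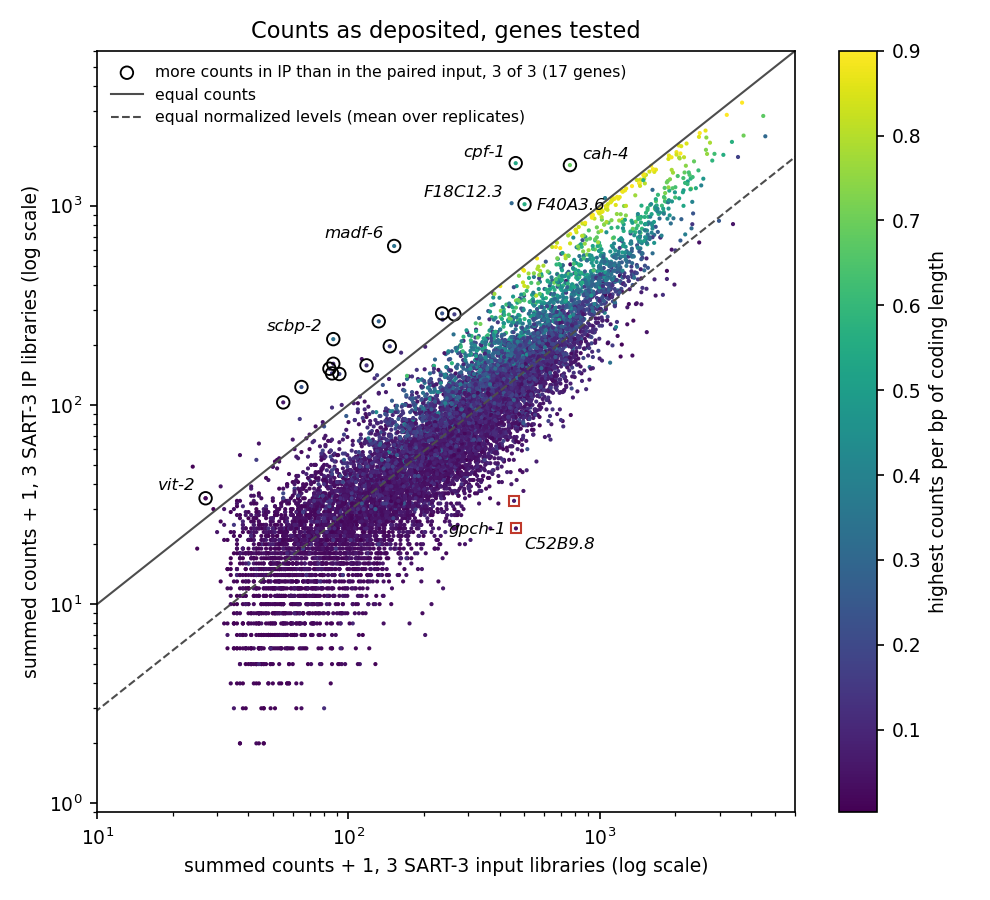
Summed deposited counts of each tested gene in the 3 SART-3 IP libraries (y axis, plus 1, log scale) against the 3 SART-3 input libraries (x axis, plus 1, log scale), coloured by the highest counts per bp of coding length. The 17 circled genes lie above the line of equal counts, the genes with the most counts per bp lie along that line, and gpch-1 and C52B9.8 (red squares) lie far below the dashed line of equal normalized levels.

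The highest ratios belonged to a handful of unrelated mRNAs. madf-6 encodes a protein with a MADF DNA-binding domain and lies on chromosome I from 1011371 to 1014455 (WBcel235). It had 101, 240 and 286 counts in the SART-3 IP libraries and 55, 46 and 50 counts in the SART-3 input libraries. Its level was 476 ± 222 CPM in the IP and 34.6 ± 5.55 CPM in the input (SD, n = 3 each), and the groups did not overlap. The log2 ratio was 3.76 ± 0.16 (SE), with 2.77, 3.67 and 4.40 in replicates 1, 2 and 3, and an edgeR adjusted p of 1.18e-34. cpf-1 encodes a subunit of the cleavage stimulation factor that acts in 3′ end formation of mRNAs, and lies on chromosome II from 8600449 to 8602440. It had 304, 634 and 697 counts in the IP and 121, 172 and 169 counts in the input. The log2 ratio of cpf-1 was 3.53 ± 0.17 (SE; edgeR adjusted p 1.85e-32), and each replicate gave at least 3.23. Both genes overlap an exon of a gene on the opposite strand in WBcel235, C54G6.2 for madf-6 and F28C6.5 for cpf-1, and whether counting used the strand is not stated in the sources used here. Other genes named below also have such an overlap, among them clec-221, F13D12.8, vit-2, F22D6.8, cdk-11.2, T14G8.3, gld-2, slc-9B.1 and lin-29.

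cah-4, which encodes a carbonic anhydrase, had 450, 584 and 565 counts in the IP and 206, 301 and 253 counts in the input, a log2 ratio of 2.84 ± 0.16. F40A3.6 had 195, 389 and 433 counts in the IP and 136, 168 and 197 counts in the input, a log2 ratio of 2.74 ± 0.15. In cah-4 the lowest IP count exceeded the highest input count although the IP libraries were the shallower ones, and in F40A3.6 this held within each replicate. The short gene scbp-2, of 258 bp, had 64, 62 and 87 counts in the IP and 23, 30 and 33 counts in the input, a log2 ratio of 3.08 ± 0.20. Y41E3.6, of 342 bp, had 87, 78 and 97 counts in the IP and 47, 40 and 44 counts in the input, a log2 ratio of 2.78 ± 0.17. scbp-2 and Y41E3.6 reached 0.337 and 0.284 counts per bp at most, and madf-6 reached 0.345. cah-4, F40A3.6 and cpf-1 reached 0.689, 0.557 and 0.539 counts per bp. These are among the 407 tested genes over 0.5 counts per bp, so the limit from collapsing bears on their counts. F18C12.3 reached a log2 ratio of 2.82 ± 0.16 with 118, 496 and 415 counts in the IP and 133, 152 and 160 counts in the input, and it falls outside the 17 because replicate 1 had fewer counts in the IP.

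**Figure D2:**
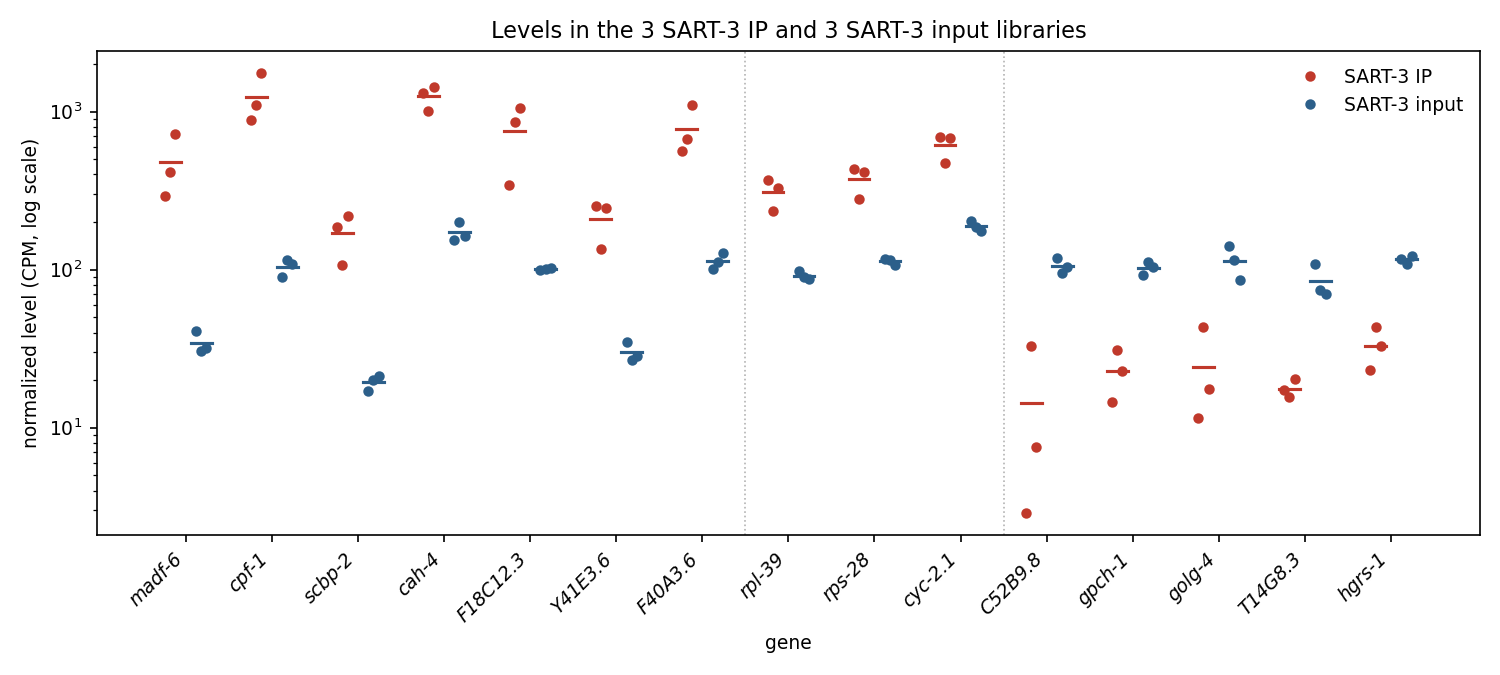
Normalized level (CPM, log scale) of 15 genes in each of the 3 SART-3 IP (red) and 3 SART-3 input (blue) libraries, with short bars at the means. In the 7 genes on the left and the 3 in the middle (rpl-39, rps-28, cyc-2.1) every IP value lies above every input value, and in the 5 genes on the right every IP value lies below every input value.

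The rest of the 17 genes had log2 ratios between 1.87 and 2.73. ZK54.3 had 68, 31 and 61 counts in the IP and 45, 18 and 23 counts in the input. clec-221, which encodes a C-type lectin domain protein, had 38, 30 and 34 counts in the IP and 19, 11 and 24 counts in the input. C45B2.8, only 222 bp long, had 26, 53 and 43 counts in the IP and 23, 24 and 17 counts in the input. ift-43, a gene of intraflagellar transport in ciliated neurons, had the smallest ratio, 1.87 ± 0.15, with 94, 100 and 90 counts in the IP and 88, 90 and 85 counts in the input, so it sat just above equal counts. R07H5.11 and T08B2.4, both 360 bp long, had nearly the same counts in every library. R07H5.11 had 40, 53 and 58 counts in the IP and 26, 29 and 28 counts in the input, and T08B2.4 had 37, 51 and 55 counts in the IP and 28, 28 and 29 counts in the input. Whether these 2 genes share reads was not tested, and they may count as 1 signal. The others were F22D6.8 (log2 ratio 2.42), R102.1 (2.21), C35D10.8 (2.21), F13D12.8 (2.07) and the yolk protein gene vit-2, the last with only 11, 12 and 10 counts in the IP and 10, 7 and 9 counts in the input. The 17 genes had coding lengths from 222 to 4842 bp (median 501 bp) and are spread over all 6 chromosomes. All 375 values of these genes under the alternative settings kept the direction and the call. These settings refit the counts that the genes were picked on, so the direction was fixed by the choice and the values are no further support.

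Among genes with at most 0.1 counts per bp, 3 that were picked after their values were seen had large ratios, which differed between replicates in the first 2. B0507.6 had 6, 11 and 31 counts in the IP and 18, 3 and 2 counts in the input, and its log2 ratio of 2.86 ± 0.45 fell to 1.45 without replicate 3 and was 4.74 without replicate 1. cdk-11.2, a cyclin-dependent kinase gene, had 13, 66 and 90 counts in the IP and 45, 36 and 31 counts in the input, and its log2 ratio of 2.27 ± 0.24 was 1.46 without replicate 3. Replicate 1 showed almost no excess in either gene, at 0.33 and 0.16 on the log2 scale. mes-2, the enzyme of a Polycomb-type histone methyltransferase in the germline, was steadier, with 57, 133 and 172 counts in the IP and 93, 133 and 150 counts in the input and a log2 ratio of 1.66 ± 0.14 (edgeR adjusted p 5.23e-17). B0507.6 lost its call with DESeq2 (adjusted p 0.08) and without the replicate block (0.0674), and cdk-11.2 lost its call with DESeq2 (0.0903) and in the robust fit (0.0998).

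The lower genes were long mRNAs of modest level. C52B9.8, of 4011 bp, had 1, 19 and 3 counts in the IP and 160, 142 and 161 counts in the input. Its log2 ratio was −2.60 ± 0.27 (edgeR adjusted p 2.33e-13), and −4.34 without replicate 2, which held most of its IP counts. gpch-1 had 5, 18 and 9 counts in the IP and 125, 169 and 161 counts in the input, a log2 ratio of −2.12 ± 0.23. golg-4 had 4, 25 and 7 counts in the IP and 191, 172 and 133 counts in the input, a log2 ratio of −2.08 ± 0.23, and −2.92 without replicate 2. In each of these genes every IP level lay below every input level. T14G8.3 had 6, 9 and 8 counts in the IP and 146, 111 and 109 counts in the input, a log2 ratio of −2.22 ± 0.27. It passed the filter only through the inputs, which favours a lower ratio, so its call is no support for a direction.

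Several of the lower genes have known roles. hgrs-1, the Hrs subunit of the endosomal sorting complex ESCRT-0, had 8, 25 and 13 counts in the IP and 157, 164 and 190 counts in the input, a log2 ratio of −1.74 ± 0.21. nmy-3, a non-muscle myosin heavy chain gene, had 11, 25 and 9 counts in the IP and 167, 172 and 153 counts in the input, a log2 ratio of −1.73 ± 0.21. prp-40, a splicing factor that joins early spliceosomes, had 10, 33 and 23 counts in the IP and 191, 201 and 244 counts in the input, a log2 ratio of −1.53 ± 0.18. larp-5, a La-related RNA-binding protein gene, had 9, 18 and 12 counts in the IP and 140, 142 and 162 counts in the input, a log2 ratio of −1.76 ± 0.22. The remaining 4 of the 12 lower genes with the lowest p were gldi-3 (−1.70, and −2.44 without replicate 2), clec-180 (−1.52), F54D8.6 (−1.47) and F28C1.1 (−1.38). All 265 values of the 12 genes under the alternative settings kept the direction and the call. The 12 were chosen by their p in these same counts, so the values describe dependence on the settings and are no further support. larp-5 overlaps an exon of T12F5.2 and F28C1.1 one of egl-10 on the opposite strand.

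The most extreme fitted ratios among the lower genes came from almost empty IP libraries. zgpa-1 had 1, 4 and 1 counts in the IP and 62, 69 and 70 counts in the input, a log2 ratio of −3.30 ± 0.44, and −4.03 without replicate 2. C01G10.6 had 2 counts in the IP in all and 79 in the input, a ratio of normalized levels of 0.0844 with a 95% counting interval from 0.01 to 0.315. pipp-4P had 2 counts in the IP and 64 in the input, a ratio of 0.104 (0.0124 to 0.392). slc-9B.1, T06F4.1 and K09F6.7 each had 1 count in the IP, with ratios of 0.0741, 0.0794 and 0.0926 and upper limits of 0.434, 0.467 and 0.55, and K09F6.7 lost its call without replicate 1 (edgeR adjusted p 0.0516). These intervals cover counting error only. In all, 1480 tested genes had fewer than 10 counts in each IP library. They passed the filter only through the 3 inputs, which favours a lower ratio. Their calls (367 lower, 0 higher) are therefore no support for a direction.

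The ratio followed the length of the coding region. The median log2 ratio was 0.72 in the 452 genes of at most 300 bp, 0.16 in the 2609 genes from 600 to 1000 bp, −0.28 in the 2531 genes from 1500 to 2500 bp and −0.51 in the 442 genes over 4000 bp. In the shortest genes 53.8% were higher and 0.885% lower, and in the longest genes 2.26% were higher and 54.5% lower. The order held in each of the 3 replicates, with medians from 0.86, 0.57 and 0.75 in the shortest genes to −0.83, −0.25 and −0.51 in the longest. It also held among genes with at most 0.1 counts per bp, where the medians were 0.37 in the 68 genes of at most 300 bp and −0.53 in the 428 genes over 4000 bp. Across the 11865 genes, Spearman's rho of the ratio with length was −0.49, and it was −0.345 across the 7214 sparse genes. These are descriptions across genes that share the same 6 libraries.

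**Figure D3:**
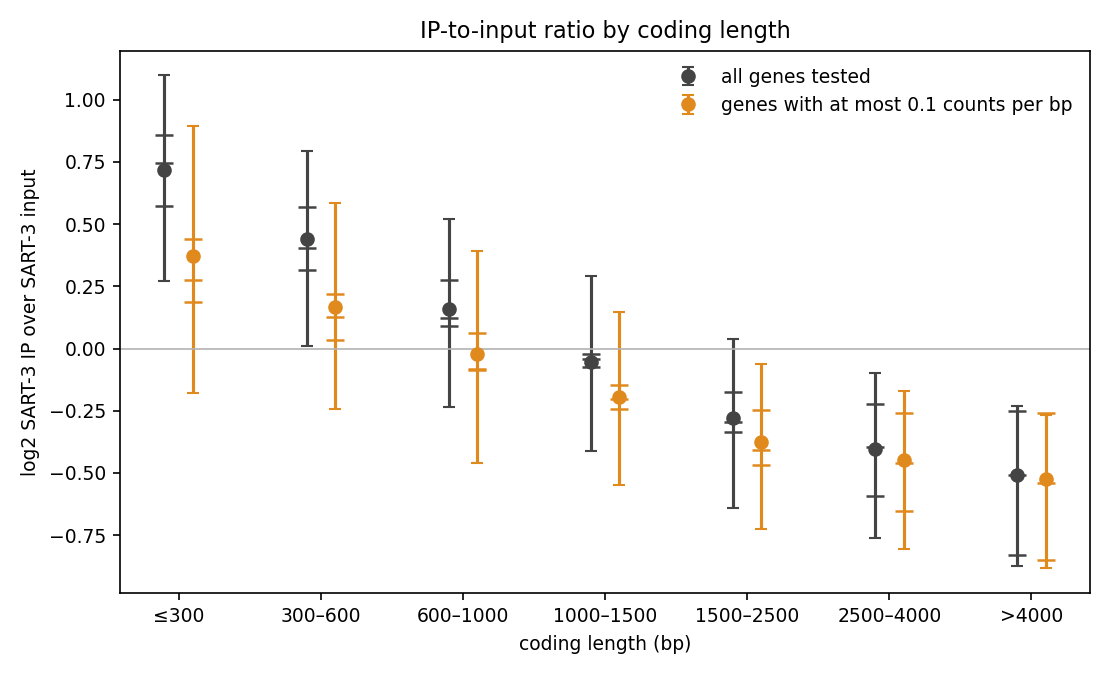
Median log2 ratio of SART-3 IP over SART-3 input (y axis) in 7 bins of coding length in bp (x axis), for all tested genes and for genes with at most 0.1 counts per bp. Points are medians, whiskers run between the quartiles, and short dashes are the medians in replicates 1, 2 and 3. The medians fall from 0.72 to −0.51 and from 0.37 to −0.53.

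The ratio also rose with the density of counts. Genes with at most 0.02 input counts per bp had a median log2 ratio of −0.41, genes from 0.1 to 0.2 had 0.15, genes from 0.3 to 0.5 had 0.71, and the 318 genes over 0.5 had 1.28, of which 317 were called higher. Within genes of 600 to 1500 bp the first 3 density bins lay between −0.16 and −0.10 and the densest bin reached 1.15. With offsets that remove the trend with length, 1979 genes were higher and 1131 lower, and 1469 of the 2278 higher genes and 862 of the 1818 lower genes kept their calls.

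Ribosomal protein genes, which are abundant and short mRNAs in growing larvae, sat near equal counts. All 77 tested members were called higher, with log2 ratios from 1.05 to 1.76 and a median of 1.68, against −0.03 over all tested genes. In 74 of them the counts exceeded 0.5 per bp. rpl-39, of 156 bp, had 127, 136 and 131 counts in the IP and 131, 134 and 136 counts in the input. rps-28, of 198 bp, had 149, 163 and 164 counts in the IP and 157, 172 and 166 counts in the input. These are up to 0.872 and 0.869 counts per bp, close to the highest value in any gene, and the counts hardly differed between library types of different depth. The longer rpl-19, of 597 bp, had 517, 537 and 533 counts in the IP and 529, 541 and 530 counts in the input, a log2 ratio of 1.76 ± 0.16.

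Genes of mitochondrial respiration and of translation followed at lower density. Of 44 nuclear respiration genes, 37 were higher and 0 lower (84.1% and 0%, against 19.2% and 15.3% of all tested genes). Their median of 0.87 lay between 0.57 and 1.15 under the other scalings and the length offsets. Cytochrome c, cyc-2.1, had 239, 275 and 268 counts in the IP and 273, 279 and 272 counts in the input, and a cytochrome c oxidase subunit, cox-7C, had 151, 178 and 165 counts in the IP and 179, 189 and 201 counts in the input. Both were close to equal counts, at 0.830 and 0.788 counts per bp. Of 38 translation factor genes, 25 were higher and 0 lower (65.8% and 0%), 15 and 0 without replicate 3, with a median of 0.53. Among the 5 members with at most 0.1 counts per bp, 0 were higher and 0 lower, with a median of −0.42. The elongation factor eef-1A.1 led with 1130, 1118 and 1044 counts in the IP and 1260, 1218 and 1207 counts in the input, at 0.905 counts per bp.

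mRNAs of the splicing machinery, to which SART-3 itself belongs, showed moderate ratios. Of 36 genes of the spliceosome core, 13 were higher and 1 lower (36.1% and 2.78% of the list, against 19.2% and 15.3% of all tested genes), with a median of 0.26 that was −0.04 with total counts only. The 4 with the largest change encode small Sm and LSm proteins of the snRNP rings. lsm-6, of 234 bp, had 31, 47 and 43 counts in the IP and 49, 70 and 76 counts in the input, a log2 ratio of 1.06 ± 0.20, and snr-7, of the same length, had 53, 90 and 77 counts in the IP and 93, 122 and 139 counts in the input, a log2 ratio of 1.06 ± 0.15. snr-5 and lsm-5 both had 0.96, and all 4 lost their calls with the length offsets. Among the 9 genes of the list with at most 0.1 counts per bp, 0 were higher and 1 was lower. Of 8 SR protein genes, 4 were higher and 0 lower (50% and 0%), 2 of them without replicate 3, led by rsp-5 with 1.11 ± 0.14 (116, 134 and 131 counts in the IP, 151, 228 and 223 counts in the input).

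Of 16 genes of mRNA 3′ end processing, the pathway of cpf-1, 3 were higher and 4 lower (18.8% and 25%, against 19.2% and 15.3% of all tested genes), 1 and 2 without replicate 3, with a median of −0.00 that lay between −0.30 and 0.26 under the other scalings. Besides cpf-1, the next largest changes were decreases. cfim-2, a gene of cleavage factor Im, had 3, 11 and 1 counts in the IP and 60, 62 and 55 counts in the input, a log2 ratio of −1.85 ± 0.37, and −2.87 without replicate 2. symk-1, the symplekin scaffold gene, had 10, 41 and 17 counts in the IP and 138, 152 and 150 counts in the input, a log2 ratio of −0.99 ± 0.20. The poly(A) polymerase gene pap-1 had −0.90 ± 0.35 and an adjusted p of 0.036 in the edgeR test, and it lost its call without replicate 1, 2 or 3. pap-1 passed the filter only through the inputs, which favours a lower ratio, so its call is no support for a direction. cfim-2 and symk-1 share exon sequence with D1046.18 and C10B5.1 on the same strand.

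**Figure D4:**
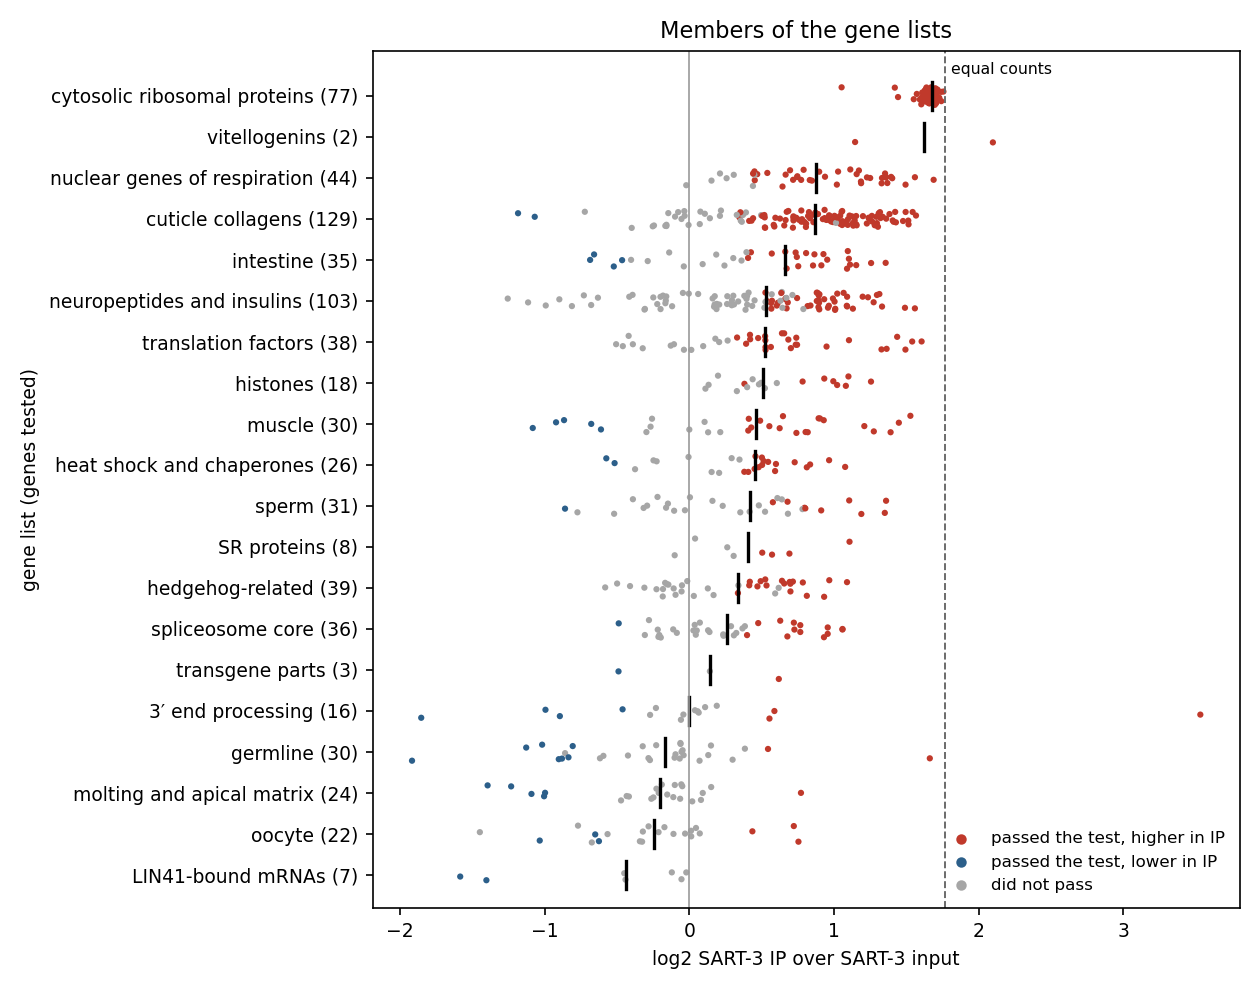
Log2 ratio of SART-3 IP over SART-3 input (x axis) for each tested member of 20 gene lists (y axis, number tested in parentheses), ordered by the list median (black bar). Red points passed the test as higher, blue points as lower and grey points did not pass, and the dashed line at 1.77 marks equal counts. Ribosomal protein genes gather just left of that line, and cpf-1 is the point far to the right in the 3′ end processing list.

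Lists for tissues and stages showed that RNA of epidermis, muscle, intestine, neurons and germline was present in both library types. IP and input of a replicate came from the same lysate, so the number of cells of a type was the same on both sides of each ratio. For levels that differ between replicates, fewer cells of a type and less RNA per cell cannot be told apart. Of 129 cuticle collagen genes, whose products build the larval cuticle, 100 were higher and 2 lower (77.5% and 1.55%, against 19.2% and 15.3% of all tested genes). Their median of 0.87 stayed between 0.56 and 1.14 under the other scalings and the length offsets. This list was not confined to dense genes. Among its 35 members with at most 0.1 counts per bp, 19 were higher and 2 lower, with a median of 0.86, against 4.71% higher, 21.3% lower and a median of −0.26 over all sparse genes. The members named by the largest ratio had nearly equal counts at very different levels. col-125 had 502, 653 and 591 counts in the IP and 656, 701 and 712 counts in the input, at 0.791 counts per bp. col-147 had 158, 181 and 184 counts in the IP and 200, 209 and 200 counts in the input, at 0.239 counts per bp. col-20 had 8, 15 and 9 counts in the IP and 7, 15 and 13 counts in the input, at 0.017 counts per bp, and lost its call with DESeq2 and in the thinned counts. Collagen genes resemble each other in sequence, and how shared reads were counted was not tested.

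Of 24 genes that act in molting and the apical matrix of the same epidermis, 1 was higher and 5 lower (4.17% and 20.8%, against 19.2% and 15.3% of all tested genes and 4.71% and 21.3% of sparse genes, and 15 of the 24 are sparse), with a median of −0.20 that became 0.07 with TMM factors from sparse genes and 0.14 with length offsets. dpy-6, of 3765 bp, had 10, 25 and 7 counts in the IP and 97, 135 and 126 counts in the input, a log2 ratio of −1.39 ± 0.23. The fibrillin-like gene fbn-1, of 7758 bp, had 16, 29 and 20 counts in the IP and 171, 153 and 140 counts in the input, a log2 ratio of −1.09 ± 0.19. The hedgehog-related gene qua-1 had 30, 79 and 22 counts in the IP and 363, 294 and 192 counts in the input and was also lower (edgeR adjusted p 3.14e-07). The molting genes had a median coding length of 2368.5 bp, against 918 bp for the collagens. Of 39 other hedgehog-related genes, 18 were higher and 0 lower (46.2% and 0%), 11 and 0 without replicate 1 or without replicate 3. Among the 14 of them with at most 0.1 counts per bp, 0 were higher and 0 lower, with a median of −0.13.

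Muscle and intestine genes were called in both directions. Of 30 muscle genes 18 were higher and 5 lower (60% and 16.7%, against 19.2% and 15.3% of all tested genes), 11 and 5 without replicate 3. The myosin light chain gene mlc-2 had 147, 148 and 143 counts in the IP and 177, 184 and 185 counts in the input, a log2 ratio of 1.45 ± 0.13, and the troponin C gene pat-10 had 257, 292 and 255 counts in the IP and 331, 351 and 359 counts in the input, a log2 ratio of 1.39 ± 0.14. The actin gene act-1 had 17, 21 and 21 counts in the IP and 22, 23 and 24 counts in the input, only 0.021 counts per bp, and has near-identical copies in the genome. Of 35 intestine genes 21 were higher and 4 lower (60% and 11.4%), 19 and 1 without replicate 3. Among the 6 intestine genes with at most 0.1 counts per bp, 0 were higher and 1 was lower, with a median of −0.21. The aspartic protease gene asp-1 led with 655, 771 and 646 counts in the IP and 931, 928 and 887 counts in the input, a log2 ratio of 1.36 ± 0.16.

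Of 103 genes for neuropeptides and insulins, 46 were higher and 0 lower (44.7% and 0%, against 19.2% and 15.3% of all tested genes). Their median coding length was 288 bp, and with length offsets 11 were higher and 8 lower and the list median turned to −0.08. Among the 27 members with at most 0.1 counts per bp, 4 were higher and 0 lower, with a median of −0.18. The FMRFamide-like peptide gene flp-8 had 82, 84 and 106 counts in the IP and 118, 109 and 103 counts in the input, a log2 ratio of 1.49 ± 0.15. Of 18 histone genes 8 were higher and 0 lower (44.4% and 0%), 4 and 0 with length offsets. Among the 6 histone genes with at most 0.1 counts per bp, 0 were higher and 0 lower, with a median of 0.46. Of 26 heat shock and chaperone genes 16 were higher and 2 lower (61.5% and 7.69%), 10 and 1 without replicate 1 and 5 and 0 without replicate 3. Of the 2 with at most 0.1 counts per bp, 0 were higher and 1 was lower. The abundant hsp-90 had 664, 808 and 619 counts in the IP and 1197, 1099 and 1062 counts in the input, a log2 ratio of 1.08 ± 0.16.

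Of 30 germline genes 2 were higher and 7 lower (6.67% and 23.3%, against 4.71% and 21.3% of all sparse genes, and 23 of the 30 are sparse), 4 lower without replicate 1 or 3, with a median of −0.17 that became 0.10 with TMM factors from sparse genes and 0.06 with length offsets. Apart from mes-2, the genes with the largest change were lower in the IP. gld-2, a cytoplasmic poly(A) polymerase gene of 4830 bp, had 1, 6 and 3 counts in the IP and 43, 39 and 46 counts in the input, a log2 ratio of −1.92 ± 0.44. gld-2 passed the filter only through the inputs, which favours a lower ratio, so its call is no support for a direction. The RNA-binding protein genes daz-1 and nos-3 had −1.13 ± 0.31 and −1.02 ± 0.22, and daz-1 lost its call without replicate 3 and with DESeq2, and nos-3 without the replicate block. Of 22 oocyte genes 3 were higher and 3 lower (13.6% each, against 19.2% and 15.3% of all tested genes). Among the 19 sparse oocyte genes, 0 were higher and 3 lower (0% and 15.8%, against 4.71% and 21.3% of all sparse genes). One of the higher oocyte genes, spn-4, had 9, 105 and 14 counts in the IP and 42, 122 and 45 counts in the input, and its log2 ratio of 0.75 fell to 0.03 without replicate 2. Of 31 sperm genes 9 were higher and 1 lower (29% and 3.23%), but 0 and 0 without replicate 3. Among the 20 sparse sperm genes, 4 were higher and 1 lower (20% and 5%). The sperm gene ssp-16 had 13, 40 and 75 counts in the IP and 25, 63 and 112 counts in the input, so replicate 3 held the most of this RNA in both library types. Only 2 of the 6 vitellogenin genes passed the filter, both with at most 15 counts in any library, and they are genes of adult hermaphrodites.

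The genes that lent parts to the transgene had small ratios. The deposited gene lengths are coding lengths, so reads of the transgene's xrn-2 3′UTR would not be counted under xrn-2. The dpy-30 promoter is not transcribed. The xrn-2 and dpy-30 values thus describe the worm's own copies of these genes. sart-3 itself had 20, 48 and 27 counts in the IP and 137, 146 and 158 counts in the input. This gave a log2 ratio of −0.49 ± 0.18 (edgeR adjusted p 0.0229). The call was lost in 11 of the alternative settings, among them DESeq2 (adjusted p 0.266), and no setting placed sart-3 higher in the IP. xrn-2, whose 3′UTR the transgene carries, had 0.14 ± 0.14 and did not pass the test, but was higher with length offsets (0.55, edgeR adjusted p 0.00158) and with TMM factors from sparse genes (0.41, adjusted p 0.0288). dpy-30, which gave the promoter, had 46, 96 and 86 counts in the IP and 134, 168 and 192 counts in the input, a log2 ratio of 0.62 ± 0.14, and lost its call without replicate 3 (adjusted p 0.0781) and with length offsets (0.733). It overlaps rnp-1 on the same strand. In the inputs sart-3 was 0.45 ± 0.17 higher on the log2 scale in SART-3 worms than in LIN41 worms, which did not pass the test over all genes (adjusted p 0.363, 12-library edgeR fit, in which 1.10% of genes differed between the inputs).

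The ratios ran in parallel with those of the other bait, though not in every gene. Across the 11865 genes the log2 ratios of the SART-3 and the LIN41 precipitations correlated with Pearson's r of 0.79, and with 0.68 across the 7214 sparse genes. The 2 precipitations share no library, but they share the antibody, the lanes and the limit from collapsing. In LIN41 worms 683 genes (5.76%) were higher in the IP and 444 (3.74%) lower, and the biological coefficient of variation was 0.0849 in the SART-3 libraries and 0.212 in the LIN41 libraries. All 17 genes with more counts in the SART-3 IP than in the paired input were also called higher in the LIN41 IP, and 4 of them had more counts in the LIN41 IP than in the paired LIN41 input in 3 of 3 replicates. madf-6 had a log2 ratio of 3.76 with SART-3 and 3.82 with LIN41, cpf-1 had 3.53 with SART-3 and 3.67 with LIN41, F40A3.6 had 2.74 with SART-3 and 3.12 with LIN41, and cah-4 had 2.84 with SART-3 and 3.10 with LIN41. The difference of the 2 ratios was tested for each gene as an interaction in the 12 libraries. Among the 17 genes its lowest unadjusted p was 0.118, which does not show that the ratios are equal. Among the lower genes, hgrs-1 had −1.74 with SART-3 and −1.93 with LIN41, and gldi-3 had −1.70 and −1.69. larp-5 had −1.76 with SART-3 and −0.30 with LIN41 (edgeR interaction, unadjusted p 0.00164). F28C1.1 had −1.38 with SART-3 and −0.74 with LIN41 (edgeR interaction, unadjusted p 0.0453). Neither difference passed after adjustment.

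**Figure D5:**
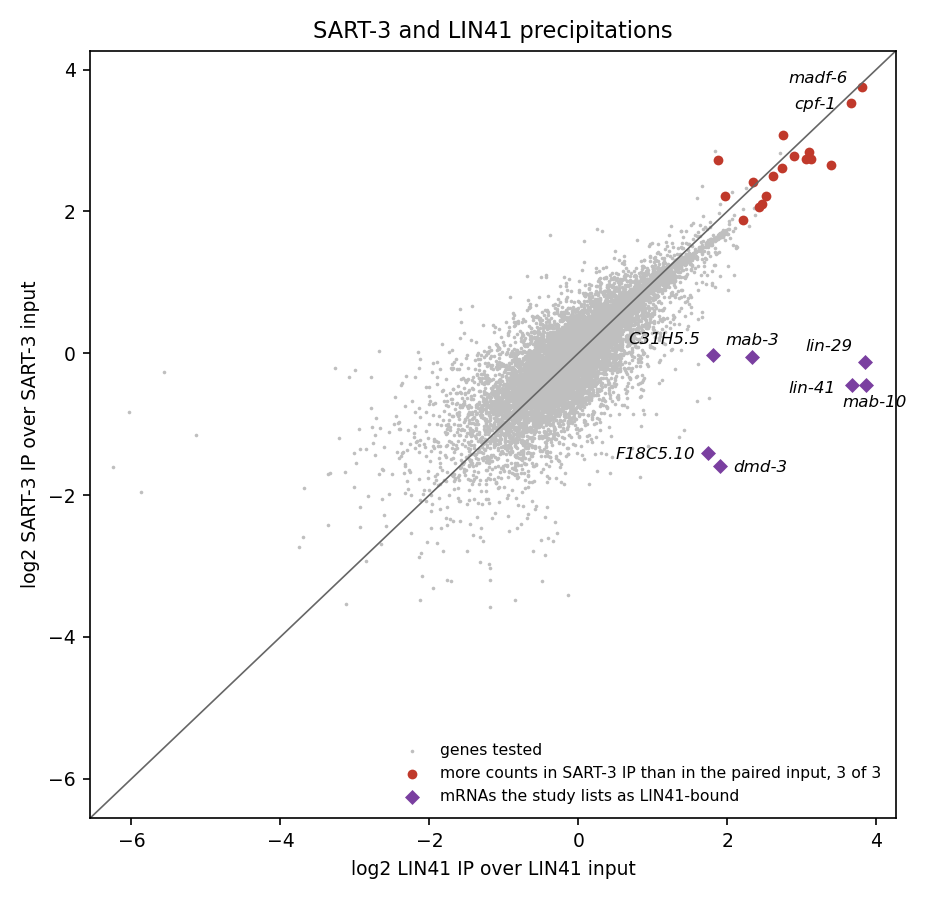
Log2 ratio of SART-3 IP over SART-3 input (y axis) against the log2 ratio of LIN41 IP over LIN41 input (x axis) for each tested gene. The 17 genes in red lie near the line of equal ratios, with madf-6 at 3.76 and 3.82, and the 7 mRNAs in purple lie far to its right, with mab-10 at −0.44 and 3.87.

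A difference between the baits passed the test in 5 genes, all lower with SART-3 (0.0421% of those tested), and in 0 genes higher with SART-3, where an unadjusted p under 0.05 was reached by 133 genes (1.12%) higher and 105 genes (0.885%) lower with SART-3 (12-library edgeR fit). The likelihood ratio test gave 0 higher and 7 lower genes. Without replicate 3, and without the replicate block, 0 genes passed in the lower direction, while the difference in the 5 genes lay between −4.54 and −2.32 and between −4.44 and −2.39 on the log2 scale. Without replicate 1 all 5 passed, with smaller differences of −2.99 in lin-29, −3.05 in lin-41 and −2.46 in F18C5.10. The 5 are among the 7 mRNAs that the study lists as bound by LIN41. That list was chosen on these libraries, so membership alone is no independent evidence. Separately, the study cites earlier ribosome profiling for mab-3, lin-29 (isoform a), dmd-3 and mab-10 as LIN41 targets. Of these, dmd-3 was not among the 5 that passed here. For C31H5.5 and F18C5.10 the study reports no sign in existing data that LIN41 changes translation or mRNA stability. In the SART-3 comparison alone, 0 of the 7 were higher and 2 were lower (0% and 28.6%, against 19.2% and 15.3% of all tested genes). lin-29, an EGR-type transcription factor gene of the larval to adult switch, had 7, 51 and 27 counts in the SART-3 IP and 89, 124 and 77 counts in the SART-3 input, a log2 ratio of −0.12 ± 0.21, and 0.23 without replicate 1. Its cofactor gene mab-10 had 7, 27 and 17 counts in the SART-3 IP and 56, 81 and 89 counts in the SART-3 input, a log2 ratio of −0.44 ± 0.24. mab-3, a DM domain transcription factor gene of the male tail, had 14, 52 and 27 counts in the SART-3 IP and 68, 109 and 137 counts in the SART-3 input, a log2 ratio of −0.05 ± 0.20. The second DM domain gene, dmd-3, had 1, 5 and 6 counts in the SART-3 IP and 12, 47 and 60 counts in the SART-3 input and was lower, at −1.58 ± 0.42 (edgeR adjusted p 0.00192), but did not pass with DESeq2 (adjusted p 0.105) or without the replicate block (0.168). dmd-3, 1 of the 2 lower genes, passed the filter only through the inputs. This favours a lower ratio, so its call is no support for a direction. F18C5.10 was lower too, at −1.40 ± 0.33, and −2.01 without replicate 2, and did not pass without the replicate block (adjusted p 0.0665), with 6, 12 and 3 counts in the SART-3 IP and 91, 50 and 49 counts in the SART-3 input. lin-41 had 3, 12 and 6 counts in the SART-3 IP and 58, 25 and 17 counts in the SART-3 input, a log2 ratio of −0.45 ± 0.40 that was 0.37 without replicate 1 and −1.07 without replicate 2. C31H5.5 had −0.02 ± 0.30. None of the 7 showed more counts in the SART-3 IP than in any paired SART-3 input. The inputs were deeper, and only 17 of the 11865 tested genes showed such an excess in 3 of 3 replicates.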

How the data were processed

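RIP-seq libraries were analysed from 3 SART-3 IP, 3 SART-3 input and, for comparison, 6 LIN41 samples, grouped and numbered by their titles. The authors deposited read counts per gene, not normalized. Reads of 50 nt were collapsed by identical 5′ end, aligned with QuasR and counted over WormBase WS190 exons by the authors. The study names the ce6 assembly and the labels name ce10, so WBcel235 was used only for names, positions and overlaps (18778 of 20182 identifiers matched, 93.0%). Of the deposited gene lengths 96.6% are multiples of 3, hence coding length.

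Counts were tested in R 4.3.3 with edgeR 4.0.16 (quasi-likelihood F test, TMM factors, replicate block) after a filter of 10 counts in 3 of the 6 libraries. The study's methods name a likelihood ratio test, run here as an alternative. SEs are the absolute log2 ratio divided by the square root of F, and replicate ratios use a prior count of 2. Replicate numbers pair libraries of 1 lysate: deviations from the group means correlated at 0.62, 0.258 and 0.618 for the same number. The study calls the replicates independent. Alternatives used DESeq2 1.42.0, limma 3.58.1, other scalings, filters, counts corrected for the limit from collapsing (minus length times ln(1 − counts per bp)), length offsets, thinned counts and left-out replicates. The scripts were tested on simulated data. Named genes are those of lowest p (12 per direction), of largest ratio (8 per direction), up to 4 per list, the transgene genes and the LIN41-bound mRNAs. Members, lists and rules were chosen with earlier results of these data known. Lists are described by counts and medians.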

Additional observations from a re-analysis of the deposited data

Results flagged for a closer look

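In all, 5 mRNAs differed between the baits in the interaction test over 12 libraries, each with a lower IP-to-input ratio for SART-3 than for LIN41 (edgeR quasi-likelihood test, Benjamini-Hochberg adjusted). The difference, SART-3 minus LIN41, was −2.34 ± 0.29 for mab-3 (adjusted p 0.00145), −4.34 ± 0.58 for mab-10 (0.00248), −4.05 ± 0.65 for lin-29 (0.0205), −3.14 ± 0.51 for F18C5.10 (0.0212) and −4.05 for lin-41 (0.0296). In replicates 1, 2 and 3, mab-10 had −0.97, −0.20 and −0.40 with SART-3 and 4.40, 3.02 and 3.86 with LIN41, and F18C5.10 had −1.84, −0.63 and −1.80 with SART-3 and 2.01, 0.78 and 1.88 with LIN41. The LIN41 strain expresses lin-41 from its transgene, so the lin-41 counts of that strain include the bait's own mRNA. All 5 lost their calls without replicate 3 and without the replicate block, with differences of −4.54 and −4.25 for lin-29, −4.36 and −4.44 for mab-10, −2.32 and −2.39 for mab-3, −4.23 and −4.36 for lin-41 and −2.86 and −3.20 for F18C5.10. Without replicate 1 all 5 kept their calls, and lin-29 had −2.99, lin-41 −3.05 and F18C5.10 −2.46.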

How the results depend on the processing

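The SART-3 comparison gave 2278 higher and 1818 lower genes. These were 1143 and 485 without the replicate block, 1297 and 902 in 1 model of all 12 libraries, 1261 and 448 with DESeq2, 1211 and 3813 with total counts only, 633 and 550 when fitted on genes with at most 0.1 counts per bp, 1979 and 1131 with length offsets, and 1724 and 1081 at an adjusted p under 0.01. Leaving out 1 replicate gave 1391 to 2151 higher and 917 to 1857 lower genes. TMM factors from sparse genes gave 3629 and 839, and scaling to the summed counts of sparse genes gave 3359 and 881, both chosen after the data were seen. The other settings stayed within 1.5 times. The 5 genes lower with SART-3 than with LIN41 became 0 without the replicate block, and 0 to 7 with 1 replicate left out. The cause was not tested. In an IP library 3 counts correspond to 5.19 to 8.68 CPM. Lower levels rest on fewer than 3 counts and were poorly measured at this depth.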

Other observations

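Genes were also grouped by the prefix of their symbol, after the values were seen. Some prefixes name a family and others, such as unc and daf, a mutant phenotype. Over all tested genes 19.2% were higher and 15.3% lower. Of the mitochondrial ribosomal protein genes, 27 of 40 mrpl genes were higher and 0 lower and 19 of 29 mrps genes were higher and 1 lower (medians 0.43 and 0.54, median coding lengths 609 and 627 bp). Of 20 vha genes, subunits of the vacuolar proton pump, 11 were higher and 2 lower. At the other end, 42 of 84 unc genes were lower and 8 higher (median −0.54, median coding length 2008 bp, 65 of 84 with at most 0.1 counts per bp), 12 of 27 cest genes, which encode carboxylesterase-like proteins, were lower and 1 higher (median −0.63, 1752 bp, 24 of 27), and 11 of 23 daf genes were lower and 2 higher (median −0.61, 2260 bp, 19 of 23). The part of length and of counts per bp in these values was not tested. Nuclear hormone receptor genes stayed near the middle, with 10 of 167 nhr genes higher and 17 lower (median −0.11).

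Genes on the X chromosome had a median log2 ratio of −0.20 (n = 1585, 19.2% lower), against −0.00 on the autosomes (n = 10081, 14.5% lower). Among genes with at most 0.1 counts per bp the medians were −0.38 on the X chromosome and −0.23 on the autosomes, and the X chromosome was lower in each of the 3 replicates. The X-linked genes were longer, with a median coding length of 1272 bp against 1149 bp on the autosomes, and the part of length in this difference was not tested.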
